A study of Homo sapiens with 9 samples.

Results

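Contactins and the immunoglobulin adhesion molecules of the L1 and NCAM families are cell-surface proteins that growing axons use to recognize each other, their substrate and their glial partners. CNTN2 (also called TAG-1) is known in the embryonic spinal cord from commissural and other early-born neurons, L1CAM and NRCAM from axon outgrowth and guidance, and NCAM1 from nearly all neural cells. In myelinated fibres some of the same proteins sort into separate zones beside the node of Ranvier: CNTN1 pairs with CNTNAP1 and faces glial NFASC at the paranode, while CNTN2 pairs with CNTNAP2 and gathers potassium channels at the juxtaparanode.

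The genes examined were 10 adhesion genes taken by name from the gene tables, CNTN1, CNTN2, CNTN3, CNTN4, CNTN5, L1CAM, CHL1, NRCAM, NFASC and NCAM1, out of 31589 genes with counts. The set was chosen by a measured value as well as by name, because CNTN2 is among the genes most raised when Rapamycin is added to VPA. For that reason the level of CNTN2 in VPA+Rapamycin against VPA is described below without a test. Messenger RNA was sequenced in bulk from whole spinal cord organoids (SCOs) of the WTC human induced pluripotent stem cell line, 3 libraries for each of 3 conditions: vehicle (FGF alone), VPA (valproic acid, an anti-seizure drug that inhibits histone deacetylases) and VPA+Rapamycin (Rapamycin inhibits the kinase mTOR). The labels give 96 h of exposure and the genotype WT for all 9 libraries, while the study's methods describe WTC clones carrying a SOX10 reporter insertion, with several organoids of a clone pooled for each RNA sample. The study's text also describes a shorter exposure than the labels, and the labels' time is used here. All conditions share this line and reporter, so the libraries speak for a single parental line. The study describes a different clone of it for each library of a condition, some with indels on the other SOX10 allele. The libraries of a condition therefore need not be genetically identical. Libraries of the same number carry a shared sample code across the conditions, which the labels do not explain. Whether a number stands for the same clone in every condition was not settled. The p-values measure the spread between these libraries, and fits that block on the number are given where they change a call.

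Libraries held 15290436 to 17417478 counted reads (median 16702223). Levels are given as CPM (the reads of a gene relative to all reads of its library, with TMM scaling over the 9 libraries), and the limit of 3 counts that a count of 0 allows corresponds to 0.170 to 0.198 CPM. This limit covers counting error only. The intervals of the fold changes come from edgeR's quasi-likelihood fits and also include the spread between libraries of a condition. The 3 comparisons share libraries in pairs (VPA enters both VPA against vehicle and VPA+Rapamycin against VPA), so their values are placed side by side and are not independent of each other. Vehicle library 3 stood apart from the other vehicle libraries. It had the highest level of the vehicle group for 7 of the 8 members that could be tested (all but L1CAM), and it alone held counts of LHX9 (86) and BARHL1 (33), markers of the most dorsal commissural interneurons, both at 0 in the other 8 libraries. The share of all genes with their highest vehicle level in this library was not counted, so the 7 of 8 does not set the members apart. For some results below, values without this library are also given, while the marker lists are given only with it.

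NFASC and CNTN2 are neighbours on the plus strand of chromosome 1, with NFASC at chr1:204828651-205022822, CNTN2 at chr1:205042937-205078284, 20.1 kb between them and no annotated gene wholly in between. Both were called lower in VPA than in vehicle SCOs, as were 15.7% of all genes. The VPA libraries of CNTN2 took part in its selection, and the NFASC call was lost without VPA library 1 or 2. Whether the 2 genes share any control was not tested. The bases directly before their first annotated exon are shown because these 2 adjacent genes had calls in the same direction. They come from the RefSeq promoter windows (GRCh38.p14), run 5' to 3' on the plus strand, contain no exon base of the gene, and carry in capitals the letters CANNTG, an E-box, the type of site that basic helix-loop-helix factors of neurogenesis can bind.
CNTN2 chr1:205042699-205042936: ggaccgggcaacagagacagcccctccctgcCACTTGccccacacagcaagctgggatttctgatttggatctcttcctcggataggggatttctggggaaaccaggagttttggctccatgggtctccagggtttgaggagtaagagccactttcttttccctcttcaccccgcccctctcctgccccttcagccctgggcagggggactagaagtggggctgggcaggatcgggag
NFASC chr1:204828402-204828650: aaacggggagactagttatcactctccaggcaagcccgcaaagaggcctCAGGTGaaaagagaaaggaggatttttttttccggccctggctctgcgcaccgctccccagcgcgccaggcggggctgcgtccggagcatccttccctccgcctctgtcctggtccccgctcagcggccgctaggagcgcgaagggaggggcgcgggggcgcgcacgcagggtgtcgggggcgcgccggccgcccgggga
Both stretches held 1 E-box, and their G and C content was 59.7% for CNTN2 and 69.5% for NFASC. Of the 10 members 9 (all but NCAM1) matched the RefSeq windows, with 18 windows of 300 bases in all. CANNTG reads the same on both strands and was present in 13 of these 18 windows and in 68.7% of the 35116 windows of all genes. TGANTCA, a motif of AP-1 factors that also reads the same on both strands, was present in 1 of the 18 windows, a NRCAM window, and in 7.71% of all windows. These are matches of letters and not measured binding sites.

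Relative to gene length, the members fell into an abundant and a scarce set. In vehicle SCOs NCAM1 stood at 28.97 ± 3.65 CPM per kb of exon (SD, n = 3), NRCAM at 27.6 ± 6.69 and L1CAM at 25.2 ± 1.82, and these neighbours in the order did not differ beyond their spread. CNTN2 followed with 8.58 ± 4.65, then CNTN1 with 3.48 ± 1.28 and NFASC with 3.18 ± 0.380, which overlapped. CNTN3 (0.709 ± 0.326) and CNTN5 (0.129 ± 0.113) were low. In VPA SCOs the level of CNTN2 per kb was 1.65 ± 0.0507, beside 5.91 ± 0.433 for CNTN1, so that the order of these 2 contactins was the opposite of that in vehicle SCOs. CNTN4 was listed with 2 counts in vehicle library 3 and 0 elsewhere, and CHL1 with 3 counts in VPA+Rapamycin library 3 and 0 elsewhere. Neither passed the filter on low counts, so that 8 of the 10 members were tested.

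**Figure D1:**
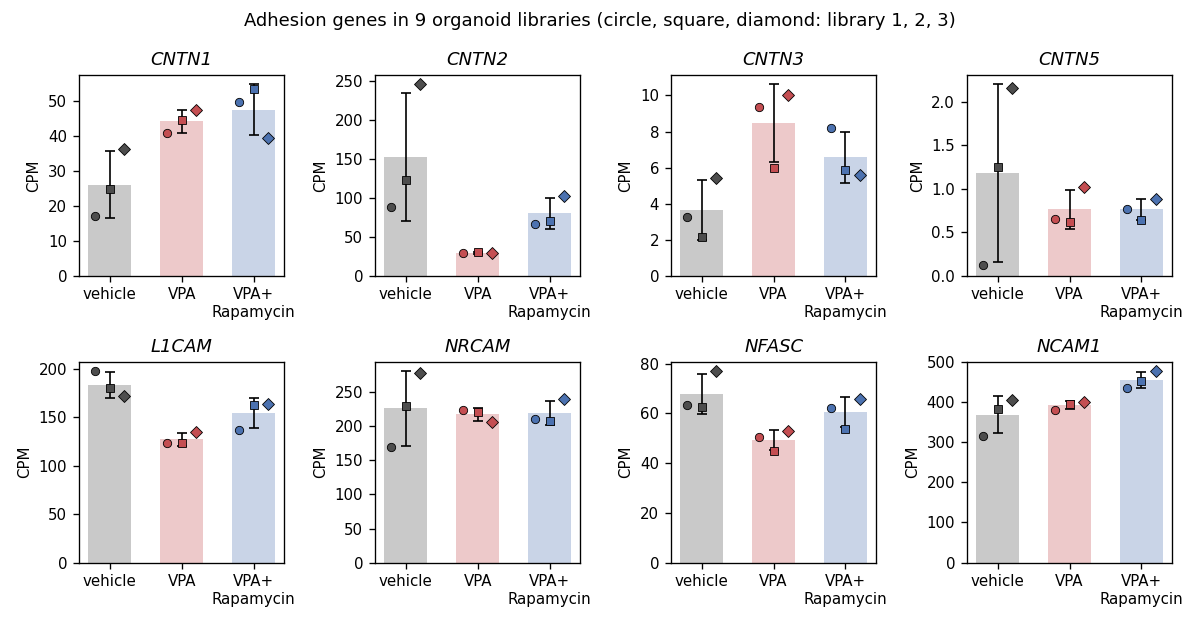
Each panel plots 1 member in CPM for vehicle, VPA and VPA+Rapamycin, with bars at the mean, error bars of 1 SD and 1 point for each of the 3 libraries of a condition. CNTN2 sits at 28.8 to 30.4 CPM in the VPA libraries, below every vehicle and VPA+Rapamycin library, while the VPA libraries of CNTN1 and CNTN3 sit above every vehicle library.

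CNTN2 fell to 19.3% of its mean vehicle level in VPA SCOs. Reads counted on CNTN2 numbered 1495, 1872 and 3977 under vehicle, 484, 493 and 507 under VPA, and 1128, 1211 and 1636 under VPA+Rapamycin. As levels these came to 88.4, 123 and 246 CPM for vehicle, 28.9, 30.4 and 28.8 CPM for VPA, and 67.1, 70.5 and 103 CPM for VPA+Rapamycin. The VPA libraries were the lowest 3 of the 9 and lay close together, with a coefficient of variation of 3.07% against 54.3% in vehicle, and they overlapped with neither of the other groups. With Rapamycin added the mean was 52.6% of that of vehicle. The log2 fold change of CNTN2 in VPA against vehicle was -2.39 (SE 0.30), with an adjusted p of 0.000243 by edgeR's quasi-likelihood test. Without vehicle library 3 it was -1.85 (adjusted p 9.62e-09), and it stayed past the threshold under all 13 alternatives. These VPA libraries are also those in which CNTN2 was low in the contrast that selected it. The estimate and its adjusted p are therefore not independent of the selection, and none of the alternatives removes this.

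Adding Rapamycin to VPA gave a log2 fold change of CNTN2 of 1.45 (SE 0.13), which placed it 26th by fold among the 522 genes raised in that comparison. This is the value on which CNTN2 was selected, and it is given as a description. Every VPA+Rapamycin library lay above every VPA library. The VPA+Rapamycin and vehicle groups overlapped, since the highest VPA+Rapamycin library (103 CPM) lay between vehicle libraries 1 and 2. Its log2 fold change in VPA+Rapamycin against vehicle was -0.94 (SE 0.31, 95% interval -1.63 to -0.25), with an adjusted p of 0.0575 by edgeR. That comparison passed the threshold in 4 of 13 alternatives: with the replicate number as a block (-0.83, adjusted p 0.000587), in the fit of all 9 libraries (-0.94, adjusted p 0.0227), with no filter on low counts (-0.93, adjusted p 2.02e-05) and without vehicle library 1 (-1.22, adjusted p 0.00484). Its value without vehicle library 3 was -0.41 (adjusted p 0.108).

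Across all genes, edgeR raised 16.4% and lowered 15.7% of the 17360 genes tested in VPA against vehicle, 32.1% in either direction. Among the 8 members tested there, 2 were raised (CNTN1 and CNTN3) and 3 were lowered (CNTN2, L1CAM and NFASC), 3 had no call, and the median log2 fold change was -0.27 beside -0.0030 for all genes. CNTN2 enters these numbers although its low VPA libraries took part in the contrast that selected it. Its call here is therefore not independent of that selection. The shares of all genes for VPA+Rapamycin against VPA were 3.01% raised, 3.73% lowered and 6.74% in either direction. Leaving out CNTN2, whose rise there selected it, 1 of the other 7 members tested was raised (L1CAM, a call lost in 6 of 13 alternatives), and 0 were lowered by edgeR or under any alternative, DESeq2 included. At an unadjusted p under 0.05 the number lowered was also 0. The median log2 fold change of these 7 was 0.11, beside 0.0039 for all genes. For VPA+Rapamycin against vehicle, 9.81% of genes were raised, 9.22% lowered and 19.0% called in either direction, while among the members CNTN1 was raised and 0 were lowered by edgeR (also 0 by DESeq2, and 2, CNTN2 and L1CAM, at an unadjusted p under 0.05).

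**Figure D2:**
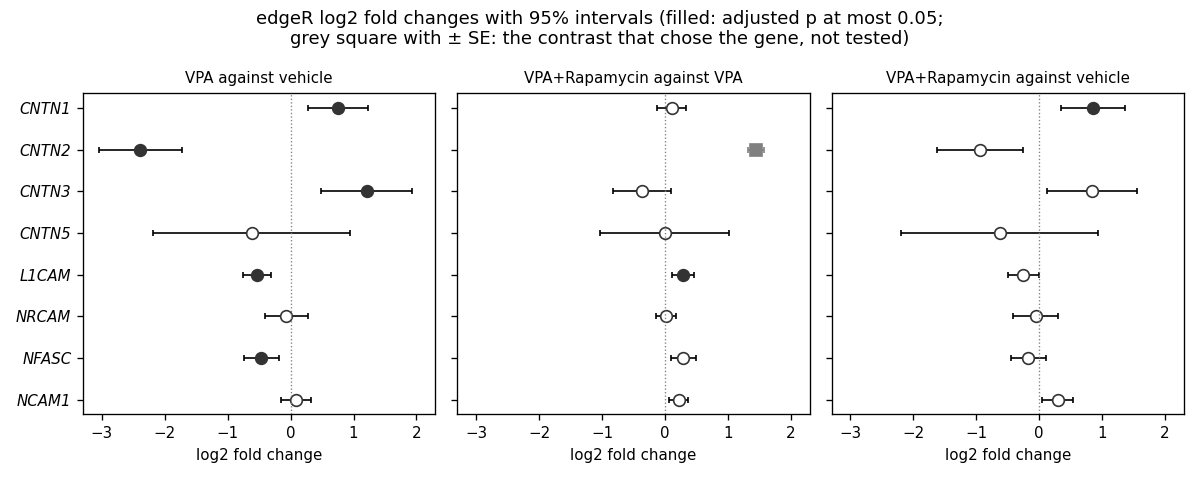
Points give the edgeR log2 fold change of 8 members in each of the 3 comparisons, with bars for the 95% interval and filled points for an adjusted p of at most 0.05. A grey square with its SE marks CNTN2 in the contrast that selected it (1.45). In VPA against vehicle CNTN2 lies at -2.39, farthest from 0 of the members, an estimate that uses the VPA libraries of that contrast.

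Of the L1 family, L1CAM and NFASC were lowered by VPA and NRCAM was not called. L1CAM (chrX:153861514-153886174, minus strand) encodes the founding member of the family, a receptor on growing axons. It measured 197, 180 and 171 CPM in vehicle, 123, 123 and 135 CPM in VPA, and 136, 163 and 164 CPM in VPA+Rapamycin. The 3 groups did not overlap, with VPA lowest, VPA+Rapamycin between and vehicle highest. The log2 fold change of L1CAM in VPA against vehicle was -0.54 (SE 0.10, edgeR adjusted p 0.00239) and passed in all 13 alternatives. With Rapamycin added to VPA it rose by 0.28 (SE 0.08, edgeR adjusted p 0.0450). That call was lost in the fit of all 9 libraries (adjusted p 0.229) and when any of the VPA libraries (0.26, 0.26 and 0.33, adjusted p 0.166, 0.191 and 0.0544 for libraries 1, 2 and 3) or VPA+Rapamycin library 2 or 3 (both 0.24, adjusted p 0.1002 and 0.177) was left out. Against vehicle, the log2 fold change of L1CAM in VPA+Rapamycin was -0.25 (SE 0.11, edgeR adjusted p 0.139).

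NFASC encodes neurofascin, which in neurons clusters sodium channels at the axon initial segment and nodes and in glia forms the paranodal partner of CNTN1. Its levels were 63.4, 62.7 and 77.0 CPM in vehicle, 50.7, 45.0 and 52.8 CPM in VPA, and 62.3, 53.8 and 65.6 CPM in VPA+Rapamycin. All VPA libraries lay below all libraries of the other groups, and the vehicle and VPA+Rapamycin libraries overlapped. NFASC fell in VPA against vehicle by 0.46 on the log2 scale (SE 0.13, edgeR adjusted p 0.0164), a call that was lost without VPA library 1 (-0.47, adjusted p 0.0576) or VPA library 2 (-0.40, adjusted p 0.0970). Adding Rapamycin to VPA gave an estimate of 0.29 (SE 0.09, edgeR adjusted p 0.0702), and it passed without VPA+Rapamycin library 2 (0.37, adjusted p 0.0244). Against vehicle it was -0.17 (SE 0.13, edgeR adjusted p 0.384).

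NRCAM, a partner of L1CAM and of contactins in axon guidance, ranged from 170 to 279 CPM in vehicle, 207 to 225 CPM in VPA and 208 to 240 CPM in VPA+Rapamycin. The vehicle libraries spanned both other groups. The log2 fold change of NRCAM was -0.07 in VPA against vehicle, with a 95% interval of -0.41 to 0.27 (edgeR adjusted p 0.768), and its sign depended on vehicle library 3, without which it was 0.12. For VPA+Rapamycin against VPA it was 0.01 with the narrower interval of -0.15 to 0.17. CHL1, the fourth member of the family, had no library above 3 counts.

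CNTN1 and CNTN3 were raised by VPA, in the direction opposite to CNTN2. CNTN1 (chr12:40692442-41072418, plus strand) is the contactin of the paranodal complex. It measured 17.1, 24.9 and 36.2 CPM in vehicle, 40.9, 44.5 and 47.4 CPM in VPA, and 49.7, 53.6 and 39.5 CPM in VPA+Rapamycin. Every library with VPA lay above every vehicle library, and the VPA and VPA+Rapamycin libraries overlapped. The log2 fold change of CNTN1 was 0.75 in VPA against vehicle (SE 0.22, edgeR adjusted p 0.0221) and 0.86 in VPA+Rapamycin against vehicle (SE 0.23, edgeR adjusted p 0.0262). Between VPA+Rapamycin and VPA it was 0.11, with a 95% interval of -0.12 to 0.33 (edgeR adjusted p 0.617). The call in VPA against vehicle was lost without vehicle library 2 (0.72, adjusted p 0.0793), VPA library 2 (0.75, adjusted p 0.0669) or VPA library 3 (0.70, adjusted p 0.0850). Against vehicle, the VPA+Rapamycin call was lost without vehicle library 2 (0.82, adjusted p 0.0881), or VPA+Rapamycin library 1 (0.83, adjusted p 0.0959) or 2 (0.77, adjusted p 0.09997). Without vehicle library 3 the 2 estimates were 1.07 and 1.18.

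CNTN3, a less studied contactin that binds receptor phosphatases, was lower in level. It had 55, 33 and 88 counts in vehicle (3.25, 2.17 and 5.44 CPM), 157, 97 and 176 counts in VPA (9.38, 5.98 and 9.9997 CPM), and 138, 101 and 89 counts in VPA+Rapamycin (8.21, 5.88 and 5.61 CPM). The vehicle libraries lay below the others. The log2 fold change of CNTN3 in VPA against vehicle was 1.21 (SE 0.33, edgeR adjusted p 0.0168), and the call was lost without vehicle library 2 (0.95, adjusted p 0.0626), VPA library 1 (1.14, adjusted p 0.0616) or VPA library 3 (1.07, adjusted p 0.0760). With Rapamycin added to VPA the estimate was -0.36 (95% interval -0.82 to 0.10, edgeR adjusted p 0.361). Against vehicle it was 0.84 (SE 0.33, edgeR adjusted p 0.0948), 1.26 without vehicle library 3 (adjusted p 0.00756) and 0.91 in the fit with a replicate block (adjusted p 0.0355).

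NCAM1, the most widely expressed neural adhesion molecule of the set, measured 317, 384 and 406 CPM in vehicle, 381, 396 and 401 CPM in VPA, and 437, 452 and 478 CPM in VPA+Rapamycin. The VPA+Rapamycin libraries were the highest 3, while VPA lay within the vehicle range. NCAM1 had a log2 fold change of 0.08 in VPA against vehicle (95% interval -0.16 to 0.32), 0.22 in VPA+Rapamycin against VPA (SE 0.07, edgeR adjusted p 0.0691, DESeq2 adjusted p 0.0114) and 0.29 in VPA+Rapamycin against vehicle (SE 0.11, edgeR adjusted p 0.0972). Without vehicle library 3 the last value was 0.37 and passed (adjusted p 0.0234). CNTN5 had 2, 19 and 35 counts in vehicle, 10 to 18 in VPA and 11 to 14 in VPA+Rapamycin, and its interval in VPA against vehicle, -2.18 to 0.94, was too wide at this depth to give a direction.

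In bulk RNA fewer cells of a type and less RNA per cell cannot be told apart, and neuronal markers moved in the direction of CNTN2, L1CAM and NFASC but not of CNTN1 and CNTN3. Of 10 pan-neuronal genes (such as TUBB3, DCX and STMN2), 6 were lowered and 0 raised in VPA against vehicle (15.7% and 16.4% of all genes). In VPA+Rapamycin against VPA 3 of the 10 were raised (3.01% of all genes). In VPA+Rapamycin against vehicle 3 of the 10 were lowered (9.22% of all genes). The summed level of the 10 was 1684, 2227 and 3028 CPM in vehicle libraries 1, 2 and 3, 1517 to 1665 CPM in VPA and 1625 to 1813 CPM in VPA+Rapamycin, and none of them was at 0. Vehicle library 1 thus lay close to the VPA libraries, and the calls of this list are given only with vehicle library 3 included. Taken against the mean log2 level of these 10 genes in the same library, CNTN2 lay at -0.37, -0.25 and 0.35 in vehicle, at -1.81, -1.74 and -1.83 in VPA, and at -0.73, -0.65 and -0.29 in VPA+Rapamycin. The VPA libraries stayed apart from both other groups on this scale, but their low CNTN2 took part in the contrast that selected it. For L1CAM the mean against the neuronal genes was 0.31 for vehicle, 0.32 for VPA and 0.41 for VPA+Rapamycin, with overlapping groups. NCAM1 and NRCAM, which had no call in CPM, were higher relative to the neuronal genes in every VPA library (1.91 to 1.97 and 1.02 to 1.14) than in any vehicle library (1.07 to 1.47 and 0.53 to 0.65). These ratios are descriptions and were not tested.

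**Figure D3:**
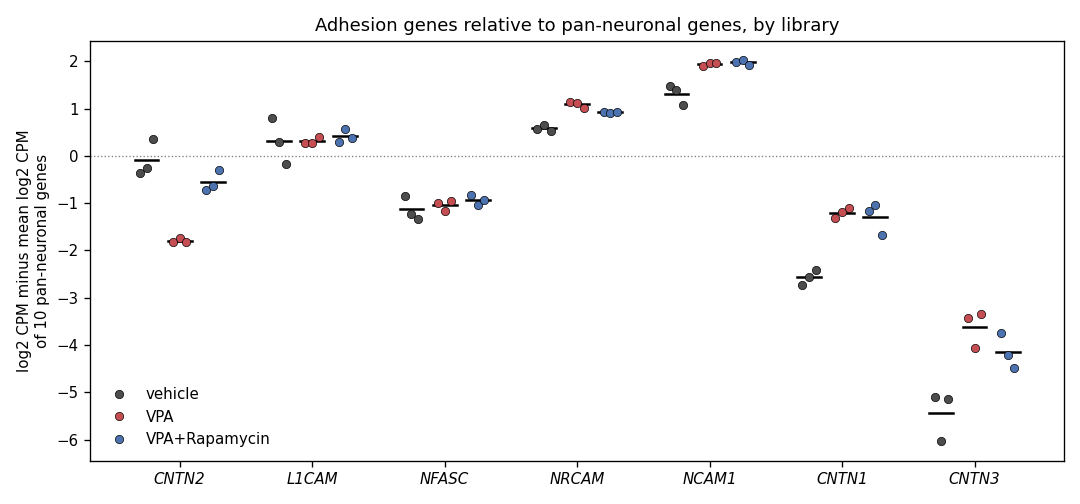
Points give the log2 CPM of 7 members minus the mean log2 CPM of 10 pan-neuronal genes in the same library, coloured by condition, with a line at the mean of 3 libraries. CNTN2 lies between -1.83 and -1.74 in VPA, below its other 6 libraries, and these VPA libraries took part in the contrast that selected it. The L1CAM groups overlap.

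Markers of dorsal and commissural interneurons also moved. Of 8 such genes 5 could be tested. In VPA against vehicle 3 were lowered and 1 was raised (LHX2, with at most 4 counts in a vehicle library), beside 15.7% and 16.4% of all genes. ROBO3, the receptor by which commissural axons control midline crossing, fell by 1.62 on the log2 scale (edgeR adjusted p 4.1e-05) and rose by 0.64 with Rapamycin added (edgeR adjusted p 0.00198). LHX5 fell by 1.55 (edgeR adjusted p 9.8e-05) and rose by 0.58 (edgeR adjusted p 0.00930), and LHX1 fell by 1.38 (edgeR adjusted p 0.00184). With Rapamycin added, 2 of the 5 tested were raised (ROBO3 and LHX5) and 0 lowered, and LHX1 (0.22, edgeR adjusted p 0.575), POU4F1 (-0.27, edgeR adjusted p 0.510) and LHX2 (-0.067, edgeR adjusted p 0.946) had no call. ROBO3 (-0.98), LHX5 (-0.98) and LHX1 (-1.16) were still lowered in VPA+Rapamycin against vehicle, where LHX2 was raised. The summed level of the list was 256 to 364 CPM in vehicle, 90.4 to 117 CPM in VPA and 136 to 174 CPM in VPA+Rapamycin, with no overlap. LHX9 and BARHL1 were at 0 in all libraries but vehicle 3. The part of these cells in the change of CNTN2 was not tested.

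Other cell types were read from their marker lists in VPA against vehicle, where 16.4% of all genes were raised and 15.7% lowered. Of 6 motor neuron genes, 2 were raised and 3 lowered, with sums of 25.7 to 39.6 CPM in vehicle and 32.7 to 39.8 CPM in VPA. Of 6 progenitor genes 1 was raised (1834 to 2101 and 2225 to 2435 CPM), and of 7 neural crest and Schwann precursor genes 2 were raised and 3 lowered, SOX10 among the latter (398 to 457 and 393 to 418 CPM). The mesenchymal list of 8 had 7 tested, of which 2 were raised (COL1A1 and COL1A2), with 4 higher and 3 lower estimates. Its sums were 138 to 295 CPM in vehicle, 558 to 715 CPM in VPA and 244 to 370 CPM in VPA+Rapamycin, highest in the condition where CNTN2 was lowest. The mean log2 CPM of the list was instead highest in vehicle library 3 (3.60), beside 0.66 and 0.39 in vehicle libraries 1 and 2 and 1.99 to 3.26 in VPA. Its genes DCN and PRRX1 were at 0 in vehicle libraries 1 and 2. Of 5 oligodendrocyte genes 1 was lowered (15.4 to 51.9 and 4.72 to 18.8 CPM), and of 6 muscle genes 2 were raised (6.12 to 15.5 and 19.1 to 23.3 CPM). MAG, MOG and MYF5 were listed in no table. The part of these cell types in the members' levels was not tested.

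The binding partners of the members were taken from a list of 34 genes, of which 33 were in the tables (CNTN6 was in none) and all 33 were tested. In VPA against vehicle 9 were raised and 7 lowered, with a median log2 fold change of -0.013. In VPA+Rapamycin against VPA 2 were raised and 2 lowered (median 0.059), and in VPA+Rapamycin against vehicle 7 were raised and 3 lowered (median -0.058). The shares of all genes called in either direction were 32.1%, 6.74% and 19.0% in these comparisons, in the same order. The number of partners called depended on single libraries: 10 in the first comparison without VPA library 1, 1 in the second without VPA library 1 or 2, and 4 in the third without VPA+Rapamycin library 1 or 2. With the replicate number as a block, 7 were called in the second comparison.

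The contactin-associated proteins, which join the contactins in the same membrane, gave 1 raised and 3 lowered of 5 tested under VPA. Of all genes 16.4% were raised and 15.7% lowered there. CNTNAP1, the paranodal partner of CNTN1, measured 72.5, 62.8 and 46.8 CPM in vehicle, 24.2, 21.8 and 26.9 CPM in VPA, and 28.7, 28.7 and 29.1 CPM in VPA+Rapamycin. Its vehicle libraries lay above all others. CNTNAP1 fell by 1.33 on the log2 scale in VPA against vehicle (SE 0.16, edgeR adjusted p 0.000214) and by 1.08 in VPA+Rapamycin against vehicle (SE 0.15, edgeR adjusted p 0.00141), while CNTN1 rose in both. CNTNAP2, the juxtaparanodal partner of CNTN2, measured 26.5, 20.5 and 31.5 CPM in vehicle, 62.5, 52.7 and 46.4 CPM in VPA, and 46.3, 37.6 and 41.3 CPM in VPA+Rapamycin. It rose by 1.03 with VPA (SE 0.17, edgeR adjusted p 0.00122), against the fall of CNTN2, and was still 0.66 above vehicle with Rapamycin added (edgeR adjusted p 0.0197). In both pairs the contactin and its partner thus had calls of opposite sign under VPA. CNTNAP5 followed the order of CNTN2, with 63, 107 and 122 counts in vehicle, 10, 15 and 34 in VPA and 56, 43 and 67 in VPA+Rapamycin. It fell by 2.40 (SE 0.43, edgeR adjusted p 0.00191) and rose by 1.53 with Rapamycin added (SE 0.39, edgeR adjusted p 0.0252). CNTNAP4, at 4 to 57 counts, fell by 1.60 with VPA (edgeR adjusted p 0.0232) and by 2.24 in VPA+Rapamycin against vehicle (edgeR adjusted p 0.0146).

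**Figure D4:**
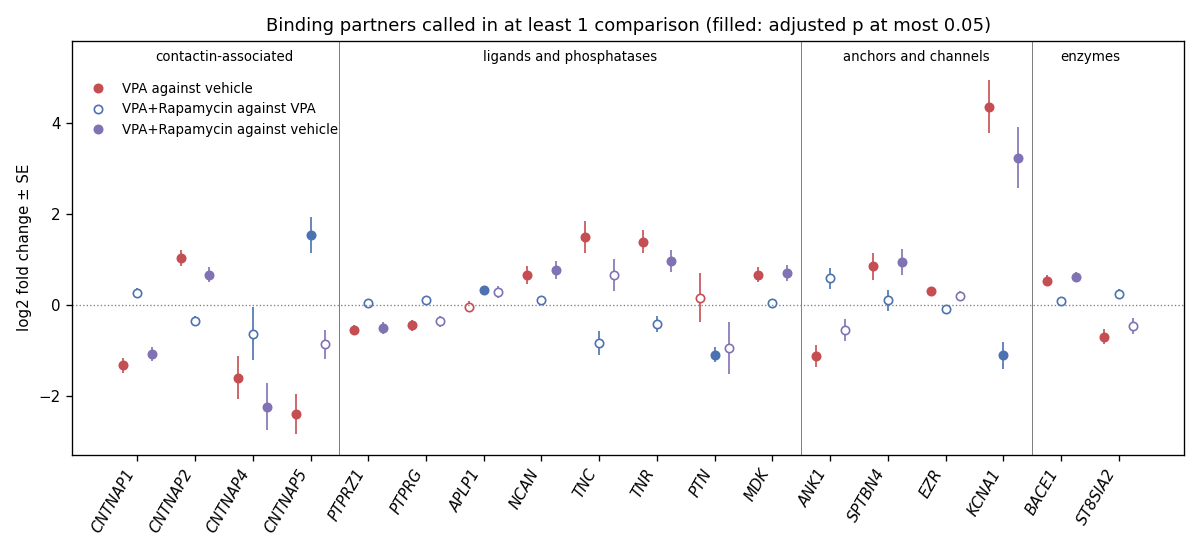
Points give the edgeR log2 fold change with its SE for the 18 binding partners that were called in at least 1 of the 3 comparisons, grouped by role and filled where the adjusted p is at most 0.05. CNTNAP1 lies at -1.33 and CNTNAP2 at 1.03 in VPA against vehicle, on opposite sides of 0.

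Of 13 extracellular partners, co-receptors and receptor phosphatases, 4 were raised and 2 lowered by VPA, beside 16.4% and 15.7% of all genes. TNR, a matrix protein that binds CNTN1, rose by 1.39 on the log2 scale (edgeR adjusted p 0.00174), TNC by 1.49 (edgeR adjusted p 0.00913) and the growth factor MDK by 0.66 (edgeR adjusted p 0.0106). PTPRZ1, the phosphatase receptor for CNTN1, fell by 0.56 (edgeR adjusted p 0.00376). In VPA+Rapamycin against vehicle TNR (0.96), MDK (0.70) and the proteoglycan NCAN (0.77, edgeR adjusted p 0.0227) were raised and PTPRZ1 was lowered (-0.52). With Rapamycin added to VPA, APLP1 was raised (0.32, edgeR adjusted p 0.0234) and PTN, a ligand of PTPRZ1, was lowered (-1.10, edgeR adjusted p 0.000444). PTN had 124 CPM in vehicle library 3 beside 23.7 and 18.9 CPM in the other vehicle libraries.

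Of 10 cytoskeletal anchors and channels, 3 were raised and 1 lowered by VPA, beside 16.4% and 15.7% of all genes. KCNA1, a subunit of the potassium channels that CNTN2 and CNTNAP2 gather, had 1, 7 and 1 counts in vehicle, 57, 57 and 89 in VPA and 24, 41 and 27 in VPA+Rapamycin. It was raised by VPA (log2 fold change 4.34, SE 0.58, edgeR adjusted p 0.000353), from so few vehicle counts that the size is imprecise, and it fell by 1.11 with Rapamycin added (SE 0.30, edgeR adjusted p 0.0333). Its order across the conditions was the reverse of that of CNTN2, whose order includes the contrast that selected it. KCNA2, another potassium channel subunit of the list, had no call in any comparison. The log2 fold changes of KCNA2 were 0.055 in VPA against vehicle, 0.12 in VPA+Rapamycin against VPA and 0.17 in VPA+Rapamycin against vehicle. ANK1 was lowered (-1.13, edgeR adjusted p 0.00563), and SPTBN4, a spectrin of the initial segment (0.84, edgeR adjusted p 0.0474), and EZR (0.29, edgeR adjusted p 0.0464) were raised. Of 5 enzymes that cut or modify the members, 1 was raised and 1 lowered by VPA, beside the same shares of all genes. BACE1 was raised (0.53, edgeR adjusted p 0.00727) and ST8SIA2, which adds polysialic acid to NCAM1, was lowered (-0.70, edgeR adjusted p 0.0100).

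Another 16 immunoglobulin adhesion genes, of which 15 were tested, served for comparison. Calls among them stand beside 32.1% of all genes called in VPA against vehicle, 6.74% in VPA+Rapamycin against VPA and 19.0% in VPA+Rapamycin against vehicle. In VPA against vehicle CADM1 (0.43, edgeR adjusted p 0.00885), CADM3 (0.35, edgeR adjusted p 0.0335) and IGLON5 (0.33, edgeR adjusted p 0.0431) were raised and CADM4 was lowered (-0.37, edgeR adjusted p 0.0293), with a median of 0.33. With Rapamycin added to VPA, CADM3 was raised (0.43) and NEGR1 (-0.48) and ALCAM (-0.55) were lowered. CADM1 (0.62) and CADM3 (0.78) were raised in VPA+Rapamycin against vehicle. The estimates of all 15 in VPA against vehicle lay between -0.37 and 0.74, and 6 of the 8 members tested lay outside that range: CNTN2 (-2.39), CNTN5 (-0.62, not called), L1CAM (-0.54), NFASC (-0.46), CNTN1 (0.75, just above it) and CNTN3 (1.21). The median absolute log2 fold change of all genes there was 0.36. The share of all genes outside the range was not counted, so the number does not set the members apart. The calls depended on single libraries, from 0 without VPA library 2 to 8 without vehicle library 3 in VPA against vehicle. With the replicate number as a block, 2 were called there and 4 in VPA+Rapamycin against vehicle.

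The genes whose log2 level followed that of CNTN2 most closely over the 9 libraries, out of 18008 compared, were MXRA7 (Pearson r 0.992), CLK1 (0.991), STRADA (0.989), KLHDC2 (0.986) and TM2D3 (0.985). The 9 libraries share their conditions, so that the correlation follows the condition means, and it is given as a description. CLK1, a kinase that phosphorylates splicing factors, had means of 202 CPM in vehicle, 84.7 CPM in VPA and 138 CPM in VPA+Rapamycin. Among the members NFASC was closest to CNTN2 (r 0.919), followed by L1CAM (0.798) and NRCAM (0.415), whereas CNTN1 (-0.403) and CNTN3 (-0.597) ran the other way. Many other genes were closer, since NFASC ranked 258, L1CAM 1512 and NRCAM 5506 of the 18008.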

How the data were processed

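Poly-A RNA of 9 SCO libraries was analysed. The deposited counts are whole reads per gene that the authors aligned with HISAT2 2.0.5 and counted with featureCounts 1.5.0-p3 (names from the submitters' processing notes), without normalization, in 1 table for each pair of conditions. Whether strand was used is not given in the sources used here. No gene overlapping a member reached 10% of its count. Gene coordinates in the tables match GRCh38. Columns of the authors' normalized values, fold changes and p-values were not used.

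Counts were tested within each table in R 4.3.3 with edgeR 4.0.16 (TMM, filterByExpr, quasi-likelihood F test, Benjamini-Hochberg adjustment over all genes tested, threshold 0.05, no replicate block). An SE is the estimate divided by the root of F. Likeness to CNTN2 and levels against neuronal genes used log2 CPM with a prior count of 1. Alternatives were DESeq2 1.42.0, other scalings and filters, all 9 libraries in a single fit, a replicate block and leaving out each library. The pipeline was tested on simulated data. The members, lists and tests were chosen with earlier results of these data known. Named were all members, up to 4 called genes of each other list and comparison with the smallest adjusted p, markers by list, and the 5 genes most correlated with CNTN2. LHX9, BARHL1, ROBO3 and the other single markers, and PTN in vehicle library 3, were named after their values were seen.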

Additional observations from a re-analysis of the deposited data

How the results depend on the processing

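Without the contrast that selected CNTN2, the 8 tested members gave 296 alternative values with an adjusted p over 23 results, of which 257 kept their direction and side of the threshold, 17 lost a call and 12 gained one, and 10 changed sign, all of them in CNTN5, NRCAM or NCAM1 without a call. Members lowered by VPA numbered 3 with every tool, scaling, filter and block, and 2 or 3 with a library left out. The selected CNTN2 was among them under every alternative, and its low VPA libraries took part in that selection. The number of raised members lay between 0 and 2 in VPA against vehicle, 1 and 2 in VPA+Rapamycin against VPA (the selected CNTN2 included, which is the only member where the number is 1), and 0 and 3 in VPA+Rapamycin against vehicle with a library left out, and that of lowered members in the last comparison between 0 and 1. Called partners lay between 10 and 21, 1 and 5, and 4 and 15 in the same order, and called genes of the other immunoglobulin list between 0 and 8, 1 and 4, and 2 and 7. For the partners the 4 in the third comparison stood without VPA+Rapamycin library 1 or 2, and 5 without vehicle library 2 or VPA+Rapamycin library 3. With a library left out, log2 fold changes lay between -1.16 and 0.19 for CNTN5, -0.24 and 0.12 for NRCAM and -0.019 and 0.16 for NCAM1 in VPA against vehicle, between -0.14 and 0.26 for CNTN5 and -0.056 and 0.051 for NRCAM in VPA+Rapamycin against VPA, and between -1.17 and 0.18 for CNTN5 and -0.23 and 0.13 for NRCAM in VPA+Rapamycin against vehicle.

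In the fit of all 9 libraries VPA+Rapamycin against VPA gave 1 raised member, which is the selected CNTN2, and so no call among the others, 0 partners and 0 other immunoglobulin genes, and VPA+Rapamycin against vehicle 2 raised and 1 lowered member. With no filter on low counts the latter comparison gave 2 raised and 1 lowered member and 4 other immunoglobulin genes, and VPA+Rapamycin against VPA 7 partners. With the replicate number as a block, VPA against vehicle gave 2 other immunoglobulin genes, VPA+Rapamycin against VPA 7 partners and a log2 fold change of 0.018 for CNTN5, and VPA+Rapamycin against vehicle 2 raised members, 1 lowered member (CNTN2, -0.83, adjusted p 0.000587) and 4 other immunoglobulin genes. The causes were not tested. Libraries of the same number share a sample code that the labels do not explain, and the correlations did not reach the level taken as pairing, above 0.1 for every number. Their deviations from the group means correlated at -0.057 to 0.143 over 18008 genes, and 2, 3 and 5 of 6 libraries correlated best with their own number in VPA against vehicle, VPA+Rapamycin against VPA and VPA+Rapamycin against vehicle. In the last of these the correlations were 0.0968, 0.0556 and 0.143 for numbers 1, 2 and 3. With 3 libraries a condition, changes of low genes such as CNTN5 are limited by depth.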
